A study of Homo sapiens with 18 samples.

Results

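The RNAs described here are 8 human genes whose products work as folded RNA and carry no poly(A) tail in their usual mature form: RN7SL1 and RN7SL2 (the RNA of the signal recognition particle), RN7SK (7SK), RMRP (RNase MRP), RPPH1 (RNase P), TERC (telomerase), RNU7-1 (U7) and VTRNA1-1 (a vault RNA). They were taken by name, for the kind of RNA they are, and were found by matching Ensembl identifiers without their version to GENCODE release 44 symbols. All 8 were present, among 60617 genes of the Illumina count files and 58676 genes of the long-read files. They were read in H1975 (NCI-H1975) and HCC827, established human lung adenocarcinoma lines with activating EGFR mutations, obtained from ATCC and grown without a named drug or genetic change. Each line gave 3 independent RNA samples, and every RNA sample went to Illumina, Oxford Nanopore (ONT) and PacBio, so that 18 libraries make 6 groups of 3.

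The protocols differ in what RNA they begin with. Illumina used 3.75 ng of poly(A)-purified mRNA, fragmentation, a directional kit, 11 PCR cycles and paired 75 nt reads. ONT used 1.5 ng of poly(A)-purified mRNA, a PCR cDNA kit and 14 cycles. PacBio Iso-Seq used total RNA, selection for cDNA near 2 kb and 12 cycles, and the file of HCC827 replicate 3 is the only PacBio file with poly(A) in its header. Input, fragmentation, size selection, amplification and sequencer change together, so their parts in a platform difference cannot be told apart. Each line is 1 cell line, so a line difference is a difference between H1975 and HCC827.

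The signal recognition particle binds signal peptides as they leave the ribosome and brings the ribosome to the endoplasmic reticulum, and its RNA is the scaffold of the particle. 7SK RNA, with LARP7, MEPCE and HEXIM proteins, holds the transcription elongation kinase P-TEFb inactive. RNase P trims the 5′ end of precursor tRNA, and RNase MRP, which shares most of its proteins, cuts precursor ribosomal RNA. TERC carries the template from which TERT writes telomere repeats. U7 RNA base-pairs with histone mRNA precursors and directs the cut that leaves them without a poly(A) tail, and vault RNA belongs to a large cytoplasmic particle built of MVP. Most of these genes are transcribed by RNA polymerase III, whereas RNU7-1 and TERC are transcribed by RNA polymerase II.

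Sequences are shown for some of the members on which the comparisons turn, as transcribed, 5′ to 3′, with T for U, from GENCODE release 44 transcripts on GRCh38. RN7SL1 and RN7SL2 are near-copies, which matters for how reads are shared between them. Over an alignment of 300 positions they were 98.3% identical, with 4 substitutions and 1 gap position.

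RN7SK and RMRP are shown because they were higher in HCC827 in ONT and stood apart in 1 Illumina library. For RN7SK the first 110 bases are given, with capitals marking GATC at positions 12, 41 and 63, since HEXIM proteins bind GAUC repeats of the 5′ hairpin. At least 3 copies of GATC were found on the transcript strand of 16.4% of the 72783 GENCODE transcripts of at most 600 bases. For RMRP the capitals mark its longest runs of A, since poly(A) selection uses oligo(dT). Across the 8 members the longest such run was 2 to 6 bases, the 6 being in TERC, and A made up 14.6% to 19.8% of the bases. A run of at least 6 A was found in 13078 of those 72783 transcripts.
RN7SK, bases 1 to 110: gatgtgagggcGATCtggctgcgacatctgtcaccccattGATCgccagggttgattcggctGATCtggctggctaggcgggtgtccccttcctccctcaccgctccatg
RMRP: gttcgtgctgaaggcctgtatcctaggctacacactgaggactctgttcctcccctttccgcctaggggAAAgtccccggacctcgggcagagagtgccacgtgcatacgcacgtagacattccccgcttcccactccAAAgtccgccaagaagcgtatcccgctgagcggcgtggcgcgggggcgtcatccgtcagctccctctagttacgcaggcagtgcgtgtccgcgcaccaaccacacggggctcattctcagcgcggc

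RNU7-1 and VTRNA1-1, the shortest members, are shown because they had the largest ONT to Illumina ratios. In RNU7-1 the capitals mark AATTTGT at positions 21 to 27, the start of the site that binds the ring of Sm and Lsm proteins. It was found on the transcript strand of 3.51% of the same 72783 transcripts. VTRNA1-3 is a paralog that the ONT libraries read more often. In the vault pair the capitals mark letters that differ or face a gap, and 83.0% of 100 aligned positions were identical. In TERC, shown for bases 16 to 86, the capitals at positions 46 to 56 mark the telomere template CTAACCCTAAC, found on the transcript strand of 0.00687% of these transcripts.
RNU7-1: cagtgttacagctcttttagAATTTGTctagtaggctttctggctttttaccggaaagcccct
VTRNA1-1: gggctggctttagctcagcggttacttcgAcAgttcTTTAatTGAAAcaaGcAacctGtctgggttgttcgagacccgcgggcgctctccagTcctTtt
VTRNA1-3: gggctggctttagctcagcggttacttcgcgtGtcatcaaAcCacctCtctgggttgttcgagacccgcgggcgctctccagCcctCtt
TERC, bases 16 to 86: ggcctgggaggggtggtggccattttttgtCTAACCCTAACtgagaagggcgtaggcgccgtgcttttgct

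On GRCh38 each member is a gene of 1 exon. RN7SL1 (ENSG00000276168) spans chr14:49586580-49586878 on the plus strand and RN7SL2 (ENSG00000274012) chr14:49862550-49862849 on the minus strand. RN7SK lies at chr6:52995621-52995948 (plus), RMRP at chr9:35657754-35658017 (minus) and RPPH1 at chr14:20343075-20343407 (minus). TERC lies at chr3:169764520-169765060 (minus), RNU7-1 at chr12:6943816-6943878 (plus) and VTRNA1-1 at chr5:140711275-140711373 (plus). Several share their bases with other annotated genes, and the sources used here do not say how the authors' counting treated such reads, or reads that match several places. RN7SK had the same count as the overlapping entry named 7SK in 18 of 18 libraries, and TERC the same count as the overlapping entry Telomerase-vert in 17 of 18. In the PacBio libraries none of these entries had counts, so only the Illumina and ONT libraries bear on this. All 328 bases of RN7SK lie in 7SK, and both had 1843 counts in HCC827 Illumina. Reads over both entries therefore seem to have been given to both, or split evenly, and not left out. RN7SL2 lies inside the exons of the long noncoding RNA ENSG00000282885 on the same strand, and its counts equalled 98.4% and 98.8% of that gene's Illumina counts in H1975 and HCC827. RPPH1 lies inside ENSG00000259001 in the same way, with 86.3% and 97.4% of its Illumina counts (84.3% in HCC827 without replicate 3) but 24.4% and 40.2% of its ONT counts. Of the 63 bases of RNU7-1, 62 fall in exons of the protein-coding gene C12orf57 on the same strand and all 63 in those of ENSG00000272173 on the other. RN7SL1 sits within the span of RPS29 on the other strand but in none of its exons. VTRNA1-1 sits in the long noncoding RNA ENSG00000292256, which is not among the genes counted. Values of members that share exon bases with a counted gene are therefore uncertain to the extent that such reads were shared or split. The same holds for reads that match several places.

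Levels are given as CPM (counts scaled to a total of 1e6 gene counts per library, with spike-ins left out). Gene totals were 81467393 to 116497461 counts in ONT, 33362018 to 40200473 in 5 Illumina libraries, 10020699 in Illumina HCC827 replicate 2, and 37795 to 54339 in PacBio. Of the epithelial markers, EPCAM had mean Illumina CPM of 245 and 228 in H1975 and HCC827, while NAPSA was low in H1975 (1.96) against 136 in HCC827. Of the 8 markers of leukocytes, endothelium and fibroblasts the highest was PECAM1 at 4.09 in H1975. The PacBio counts of H1975 replicates 2 and 3, and of HCC827 replicates 1 and 2, were closer to each other than sampling noise (0.550 and 0.671 as the mean chi-square of a gene) and may each be 1 sample. All 8 members had 0 counts in each of them.

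Before the comparisons, 1 library has to be set apart. Illumina HCC827 replicate 3, the only Illumina library whose file header names a repeat run, held 26.8 times as much RN7SK, 22.6 times as much RMRP and 8.26 times as much RPPH1 in CPM as the highest of the other 5 Illumina libraries. The other members did not stand out there: the same ratio was 1.09 for RN7SL1, 0.897 for RN7SL2, 0.844 for TERC and 0.707 for RNU7-1. In this library 26 genes with at least 10 counts reached 4 times the CPM of every other Illumina library, 15 of them annotated as small or ribosomal RNA and 3 of them members. The other 5 Illumina libraries had 0 to 45 such genes and 0 members. The 3 genes of 5.8S ribosomal RNA summed to 66.2 CPM there and to 8.68 to 16.1 CPM in the other 5, a group looked up after the member values were seen. The ONT library of the same RNA sample was not the highest of its group for RN7SK or RPPH1, and for RMRP it held 0.449 CPM against 0.352 and 0.300 CPM in the other HCC827 ONT libraries. What sets this Illumina library apart was not tested, and the TMM-scaled edgeR folds and ratios of RN7SK, RMRP and RPPH1 against Illumina are given with and without it.

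**Figure D1:**
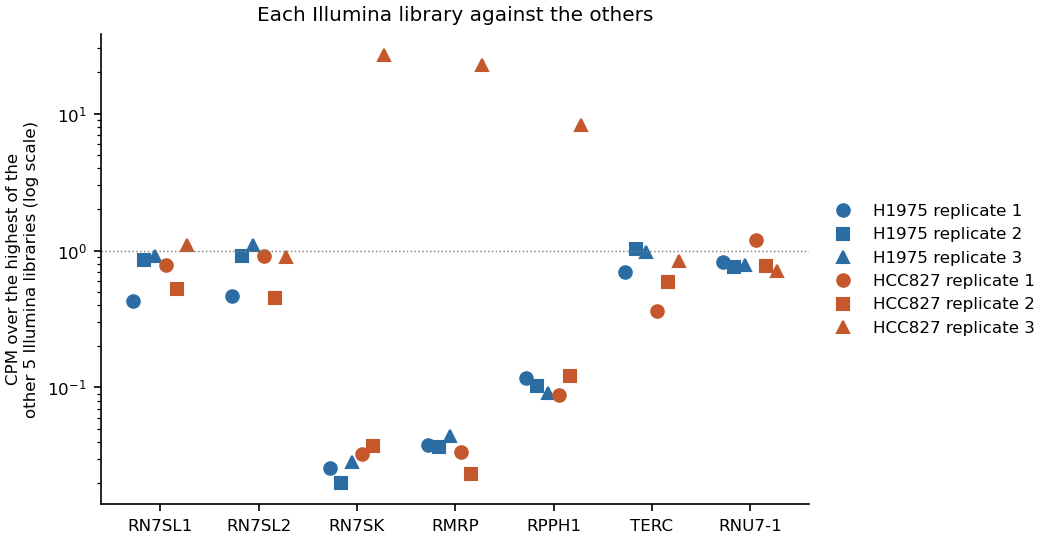
CPM of each Illumina library divided by the highest of the other 5 Illumina libraries (log axis), for the 7 members with Illumina counts. Points are libraries, coloured by cell line and shaped by replicate; the HCC827 replicate 3 triangles for RN7SK, RMRP and RPPH1 lie at 26.8, 22.6 and 8.26, and those of the other 4 members between 0.707 and 1.09.

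Summed over the 8 members, Illumina libraries held 56.3 to 188 CPM with a median of 104, ONT libraries 11.8 to 25.7 CPM with a median of 17.3, and PacBio libraries 0. The Illumina sum was made mostly of RN7SL1 and RN7SL2. All 6 Illumina sums lay above all 6 ONT sums on this scale. On TMM library sizes set over all 18 libraries the sums were 45.7 to 193 CPM in Illumina and 31.6 to 55.4 CPM in ONT, and the platforms overlapped. A member with less RNA per cell and a sample with fewer cells holding it cannot be told apart in these bulk libraries.

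**Figure D2:**
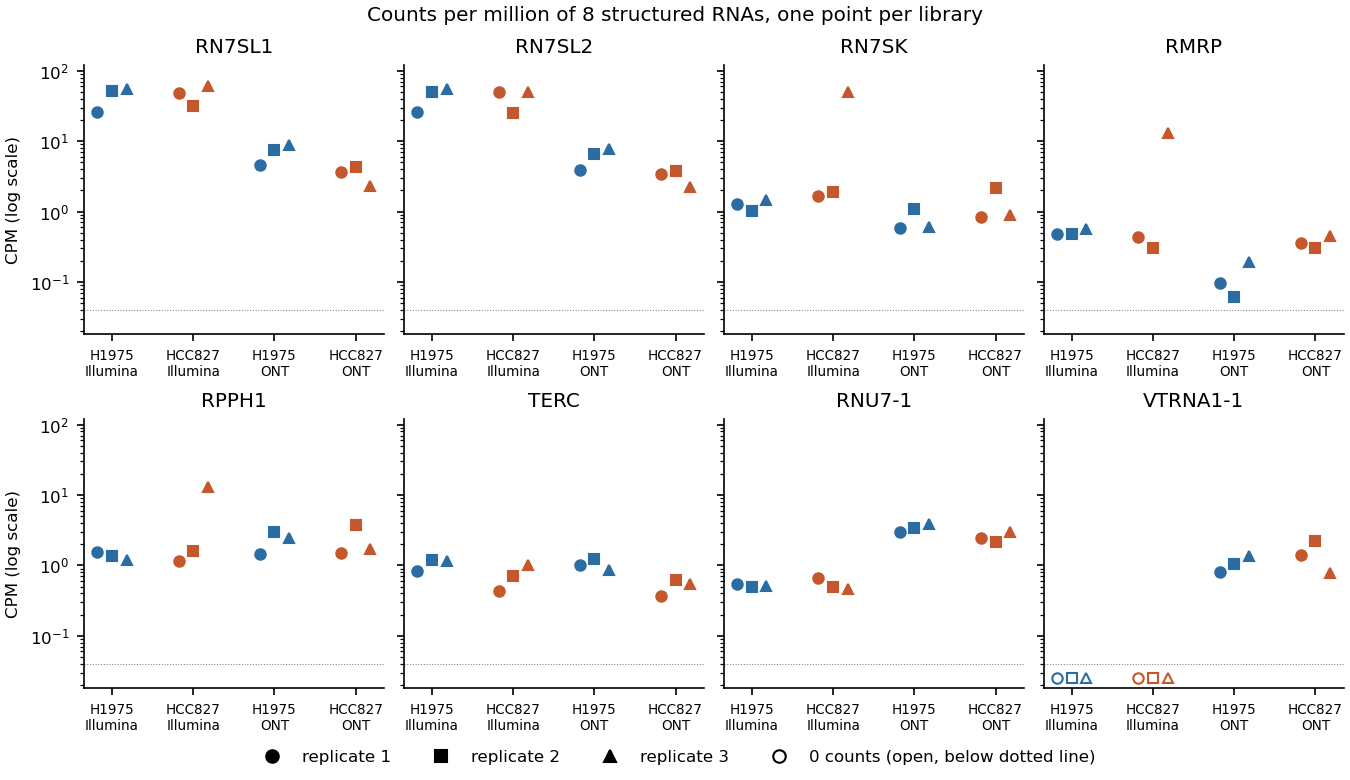
CPM (log axis) of each member in the 12 Illumina and ONT libraries, 1 point per library, with 0 counts drawn as open points under the dotted line. RN7SL1 and RN7SL2 lie higher in Illumina, RNU7-1 and VTRNA1-1 higher in ONT, and 1 HCC827 Illumina library stands above the rest in RN7SK, RMRP and RPPH1; PacBio, at 0 throughout, is not drawn.

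The signal recognition particle RNAs were the most abundant members in Illumina and were lower in ONT. RN7SL1 had 25.9, 51.8 and 55.6 CPM in the H1975 Illumina libraries and 47.8, 31.7 and 60.8 CPM in those of HCC827. In ONT it had 4.51, 7.51 and 8.74 CPM in H1975 and 3.63, 4.34 and 2.28 CPM in HCC827. Every Illumina library lay above every ONT library, while the lines overlapped on Illumina. RN7SL2 ran alongside, at 24.9 to 55.0 CPM in Illumina and 2.20 to 7.66 CPM in ONT. The share of RN7SL1 in the counts of the pair stayed between 48.8% and 56.0% over the 12 libraries, with 95% Clopper-Pearson limits (counting error only) of 45.9% to 55.8% in the shallowest of the ONT pairs. With sequences that differ at so few bases, their separate values are uncertain.

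The platform ratio was fitted in edgeR across all genes, scaled by the trimmed mean of M values (TMM) and averaged over the lines. Of the 8 members 5 were called at a Benjamini-Hochberg adjusted p below 0.05, 3 higher and 2 lower in ONT. Among the 3 was VTRNA1-1, which had 0 Illumina counts and so could only be called higher. Of the 29395 genes tested 83.4% were called, 44.2% higher and 39.1% lower. RN7SL1 was lower in ONT by a log2 fold of -1.75 ± 0.23 (SE, 12 libraries, edgeR adjusted p = 4.23e-06) and RN7SL2 by -1.81 ± 0.23 (edgeR adjusted p = 3.27e-06). Both stayed called under every alternative run in which they were tested apart, and summed with RN7SL3 and their pseudogenes the ratio was -0.97 (edgeR adjusted p = 0.000432). Scaling decides how large such ratios are: with total counts in place of TMM, the median of all genes moved from 0.12 to -1.37, RN7SL1 went to -3.24, and the members split into 2 higher and 4 lower.

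Between the lines the signal recognition particle RNAs did not pass the test. The Illumina log2 fold of HCC827 over H1975 was 0.46 ± 0.36 for RN7SL1 (SE, edgeR adjusted p = 0.294) and 0.32 ± 0.37 for RN7SL2 (edgeR adjusted p = 0.470). In ONT the values were -0.47 ± 0.25 (edgeR adjusted p = 0.126) and -0.39 ± 0.25 (edgeR adjusted p = 0.190). Without ONT H1975 replicate 1, the lowest of its group, they came to -0.71 and -0.64 and passed the test (edgeR adjusted p = 0.0274 and 0.0363). With RN7SL1, RN7SL2, RN7SL3 and their pseudogenes summed, the ONT fold was -0.026 ± 0.229 (SE, edgeR adjusted p = 0.927). Of the 8 protein subunits of the particle and its receptor, Illumina called 2 higher and 2 lower in HCC827, and ONT 1 higher and 3 lower. Among all genes tested, 74.1% were called between the lines in Illumina and 62.7% in ONT. SRP68, which with SRP72 binds the RNA, was higher (0.84 ± 0.09 in Illumina, 0.84 ± 0.15 in ONT). SRP9, of the domain that pauses translation, was lower (-0.97 ± 0.10 and -1.28 ± 0.21). SRPRB, the membrane anchor of the receptor, was also lower (-0.40 ± 0.09 and -0.63 ± 0.15). SRP19 was called in Illumina (0.31 ± 0.10, edgeR adjusted p = 0.0123) and had 0.21 ± 0.13 in ONT (edgeR adjusted p = 0.186). The median of the 8 was -0.02 in Illumina and -0.26 in ONT, against -0.04 and -0.02 over all genes tested.

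RN7SK was higher in HCC827 than in H1975 in ONT. Its ONT level was 0.584, 1.08 and 0.595 CPM in H1975 and 0.841, 2.15 and 0.898 CPM in HCC827. On the scale of the fit, which divides by TMM library sizes, the H1975 libraries held 0.485, 0.892 and 0.487 CPM and those of HCC827 1.06, 2.38 and 1.16 CPM. On the scaled values every HCC827 library lay above every H1975 library, as for 33.2% of the genes tested, although the groups overlap on plain CPM. The log2 fold was 1.30 ± 0.35 (SE, edgeR adjusted p = 0.00759), and with total counts in place of TMM it was 0.78, which did not pass (edgeR adjusted p = 0.122). With the pseudogenes named after RN7SK summed into its row, the fold was 0.49 (edgeR adjusted p = 0.0142). They were taken by symbol, and their likeness to RN7SK was not measured.

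In Illumina the H1975 libraries held 1.30, 1.02 and 1.44 CPM of RN7SK, and those of HCC827 1.66, 1.90 and 50.8 CPM. The third HCC827 library is the one set apart above. With it, the log2 fold was 4.37 ± 1.78 (SE, edgeR adjusted p = 0.0862), short of the threshold. Without it, the fold was 0.76 ± 0.24, which passed (edgeR adjusted p = 0.0138). Without HCC827 replicate 1 instead it was 5.05 (edgeR adjusted p = 0.0445).

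Of the 7 proteins of the 7SK particle and P-TEFb, Illumina called 3 higher and 4 lower in HCC827, and ONT 2 higher and 2 lower. Illumina called 74.1% of all genes tested, and ONT 62.7%. HEXIM2, a P-TEFb inhibitor, was higher (1.71 ± 0.16 in Illumina, 1.40 ± 0.17 in ONT), whereas its paralog HEXIM1 was lower (-0.53 ± 0.10 and -0.56 ± 0.15). MEPCE, which caps 7SK RNA, was higher (0.57 ± 0.12 and 0.87 ± 0.23), and LARP7, which binds its 3′ end, was lower (-0.46 ± 0.09 and -0.62 ± 0.16). The list median was -0.40 in Illumina and -0.14 in ONT.

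RMRP, the RNA of RNase MRP, was higher in HCC827 in ONT, with the smallest adjusted p of the 8 members. The H1975 ONT libraries held 9, 5 and 16 counts (0.0974, 0.0614 and 0.194 CPM) and those of HCC827 41, 28 and 41 counts (0.352, 0.300 and 0.449 CPM). Every HCC827 library lay above every H1975 library. The log2 fold was 2.20 ± 0.41 (SE, edgeR adjusted p = 0.000773), and it remained called under each alternative run, at 1.63 with total counts only (edgeR adjusted p = 0.00630). Illumina counts were 18, 19 and 19 in H1975 and 16, 3 and 447 in HCC827, or 0.487, 0.473 and 0.570 against 0.434, 0.299 and 12.9 CPM. The Illumina fold of 3.74 ± 1.70 (SE, edgeR adjusted p = 0.113) rests on the last of these: without HCC827 replicate 3 it was -0.058 ± 0.384 (edgeR adjusted p = 0.932).

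RPPH1, its RNase P counterpart, did not pass the edgeR test between the lines. ONT libraries held 1.47, 2.95 and 2.49 CPM in H1975 and 1.50, 3.69 and 1.69 CPM in HCC827, and the lines overlapped. The ONT log2 fold was 0.52 ± 0.32 (SE, edgeR adjusted p = 0.176). In Illumina it had 1.54, 1.34 and 1.20 CPM in H1975 and 1.17, 1.60 and 13.2 CPM in HCC827. That fold was 2.49 ± 1.18 (SE, edgeR adjusted p = 0.122, while DESeq2 gave 2.38 with an adjusted p of 0.0377), and without HCC827 replicate 3 it was 0.20 ± 0.26 (edgeR adjusted p = 0.513). Without HCC827 replicate 1, RMRP and RPPH1 both passed in Illumina, at 4.47 and 3.15 (edgeR adjusted p = 0.0485 and 0.0438).

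Of the 11 proteins that RNase P and RNase MRP share or hold apart, Illumina called 5 higher and 3 lower in HCC827, and ONT 3 higher and 3 lower. The shares called over all genes were 74.1% and 62.7%. RPP25L was higher (1.67 ± 0.13 in Illumina, 1.40 ± 0.15 in ONT), as was RPP21, a subunit of RNase P (1.22 ± 0.12 and 1.06 ± 0.15). POP1, the largest subunit, was lower (-1.45 ± 0.10 and -1.45 ± 0.17), and so was RPP38 (-1.24 ± 0.11 and -0.97 ± 0.15). The list median was 0.16 in Illumina and -0.10 in ONT.

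Platform ratios of RN7SK, RMRP and RPPH1 turned on the same Illumina library. With all 12 libraries the log2 ratio of ONT over Illumina was -0.85 ± 0.91 for RN7SK (SE, edgeR adjusted p = 0.403), -1.46 ± 0.98 for RMRP (edgeR adjusted p = 0.195) and 1.17 ± 0.59 for RPPH1 (edgeR adjusted p = 0.0923). With RNA sample 3 of HCC827 left out on both platforms, RN7SK turned to 1.00 ± 0.25 (edgeR adjusted p = 0.00150), RMRP to 0.31 ± 0.31 (edgeR adjusted p = 0.365) and RPPH1 to 2.35 ± 0.25 (edgeR adjusted p = 2.14e-07). With total counts only and all 12 libraries, RN7SK was called lower in ONT (-2.30, edgeR adjusted p = 0.0345) and so was RMRP (-2.93, edgeR adjusted p = 0.00831), and RPPH1 turned to -0.29 (edgeR adjusted p = 0.622).

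TERC was of similar CPM on both platforms. H1975 held 0.839, 1.19 and 1.17 CPM in Illumina and 1.02, 1.23 and 0.850 CPM in ONT. HCC827 held 0.434, 0.699 and 1.01 CPM in Illumina and 0.369, 0.621 and 0.536 CPM in ONT. In ONT every HCC827 library lay below every H1975 library, while in Illumina HCC827 replicate 3 lay among the H1975 libraries. The line difference did not pass on either platform: the log2 fold was -0.23 ± 0.32 in Illumina (SE, edgeR adjusted p = 0.536) and -0.48 ± 0.24 in ONT (edgeR adjusted p = 0.109). With total counts only, the ONT fold was -1.03 and passed (edgeR adjusted p = 0.00669). Relative to the other genes TERC was higher in ONT than in Illumina (1.21 ± 0.21, edgeR adjusted p = 3.11e-05), but with total counts only the ratio was -0.28 (edgeR adjusted p = 0.233).

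Of the 10 proteins of telomerase and of TERC maturation, Illumina called 5 higher and 3 lower in HCC827, and ONT 2 higher and 2 lower. Over all genes these platforms called 74.1% and 62.7%. TERT, the catalytic subunit, was higher by 2.60 ± 0.29 in Illumina and 2.29 ± 0.38 in ONT (edgeR adjusted p = 1.83e-06 and 0.000371). WRAP53, which brings telomerase to Cajal bodies, was higher in Illumina (1.07 ± 0.12) and had 0.37 ± 0.21 in ONT (edgeR adjusted p = 0.149). PARN, a deadenylase that trims the 3′ end of TERC, was lower (-0.67 ± 0.09 and -0.67 ± 0.15). TENT4B, the polymerase that adds the oligo(A) PARN removes, was lower in Illumina (-0.46 ± 0.11) and had -0.09 ± 0.21 in ONT (edgeR adjusted p = 0.729). The list median was 0.16 in Illumina and 0.06 in ONT.

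RNU7-1 was higher in ONT than in Illumina in both lines. Illumina held 0.541, 0.498 and 0.510 CPM in H1975 and 0.652, 0.499 and 0.461 CPM in HCC827, and ONT 2.99, 3.41 and 3.81 CPM in H1975 and 2.49, 2.14 and 2.94 CPM in HCC827. Every ONT library exceeded every Illumina library. The log2 ratio was 3.95 ± 0.16 (SE, edgeR adjusted p = 2.78e-14), 2.45 with total counts only and 2.08 with its pseudogenes summed in, and it was called each time. RNU7-1 counts were 2.94% and 2.71% of the C12orf57 counts in Illumina (H1975, HCC827) and 5.84% and 5.21% in ONT. How many of its reads came from C12orf57 transcripts was not tested.

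The line difference of RNU7-1 did not pass, at 0.43 ± 0.29 in Illumina (SE, edgeR adjusted p = 0.194) and 0.14 ± 0.20 in ONT (edgeR adjusted p = 0.557). With its pseudogenes summed in, the Illumina fold was -1.56 (edgeR adjusted p = 3.36e-06), so its sign turned with the copies counted. Of the 13 proteins of the U7 particle and of histone 3′ end processing, Illumina called 3 higher and 3 lower in HCC827, and ONT 1 higher and 3 lower. Across all genes the shares called were 74.1% and 62.7%. SYMPK, the scaffold of the cleavage complex, was higher (0.84 ± 0.12 in Illumina, 1.19 ± 0.25 in ONT). CPSF2 was lower (-0.71 ± 0.11 and -0.76 ± 0.14), as was CASP8AP2 (-0.54 ± 0.12 and -0.80 ± 0.16). ZNF473, a U7 particle partner, was called in Illumina (0.36 ± 0.13) and had 0.26 ± 0.22 in ONT (edgeR adjusted p = 0.335). The list median was 0.01 and -0.18.

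VTRNA1-1 was read by ONT and by no other platform. It had 74, 86 and 112 counts in the H1975 ONT libraries and 163, 206 and 72 in those of HCC827, or 0.801, 1.06 and 1.36 against 1.40, 2.21 and 0.788 CPM. All 6 Illumina libraries had 0 counts. Over 6 libraries, 3 counts are 0.0156 CPM in Illumina, so the pooled ONT level of 1.28 CPM was at least 81.9-fold higher. The TMM-scaled edgeR ratio, a separate measure, was called higher in ONT (edgeR adjusted p = 2.85e-10). With 0 Illumina counts VTRNA1-1 passed the filter through ONT alone, so it could be called in no other direction. Reads carried no molecular identifiers and were amplified, so floors and intervals hold counting error alone.

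Between the lines VTRNA1-1 was higher in HCC827 in ONT, with a log2 fold of 0.98 ± 0.31 (SE, edgeR adjusted p = 0.0163), although HCC827 replicate 3 overlapped H1975. The call was lost without H1975 replicate 1 (0.80, edgeR adjusted p = 0.0731) and with total counts only (0.45, edgeR adjusted p = 0.294). Of the 3 vault proteins, MVP was higher in Illumina (0.71 ± 0.15) and had 0.50 ± 0.21 in ONT (edgeR adjusted p = 0.0588). TEP1, shared by vaults and telomerase, was higher on both (0.47 ± 0.12 and 0.75 ± 0.25). The median of the 3 was 0.47 and 0.50.

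**Figure D3:**
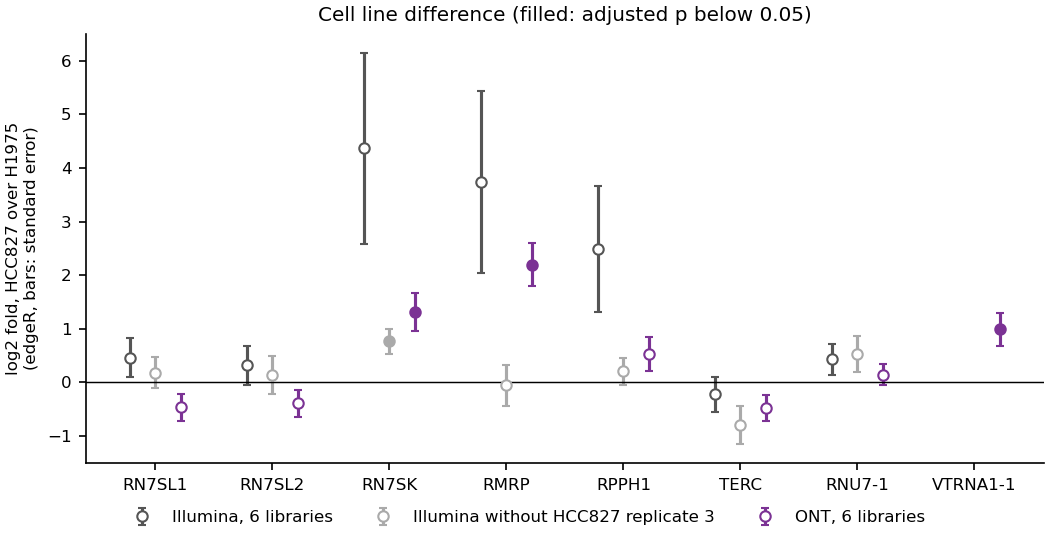
Log2 fold of HCC827 over H1975 for each member (edgeR, bars are standard errors), in the 6 Illumina libraries, in Illumina without HCC827 replicate 3, and in the 6 ONT libraries; filled points have an adjusted p below 0.05. In ONT, RN7SK, RMRP and VTRNA1-1 are filled at 1.30, 2.20 and 0.98; in Illumina, RN7SK, RMRP and RPPH1 have the widest bars and fall to 0.76, -0.058 and 0.20 once that library is left out.

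Counted together, 0 of the 7 members that passed the filter on low counts in Illumina were called between the lines by edgeR, and 0 had an unadjusted p below 0.05, where 74.1% of 25711 genes were called. DESeq2 called 1, RPPH1, and gave no adjusted p for RN7SK and RMRP. In ONT 3 of 8 were called, all higher in HCC827, where 62.7% of 27366 genes were called, 31.1% higher and 31.6% lower. With total counts only, ONT called 1 higher (RMRP) and 3 lower (RN7SL1, RN7SL2 and TERC), and the median of all genes moved by -0.55. On scaled values, the lines did not overlap for RN7SK and RNU7-1 in Illumina, both with HCC827 above, as for 36.9% of genes. In ONT they did not overlap for RN7SK and RMRP (HCC827 above, as for 33.2% of genes) and TERC (below, as for 35.9%). A share of 3 in 8 higher is near the ONT background, and the Illumina share lies below its own.

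The 5.8S ribosomal RNA genes, looked up after the member values were seen, were also higher in HCC827 in ONT. They summed to 94.9 to 110 CPM in the H1975 ONT libraries and to 290 to 512 CPM in those of HCC827. Among the members, RN7SK, RMRP and VTRNA1-1 had ONT folds of 1.30, 2.20 and 0.98, all called. RPPH1 and RNU7-1 had 0.52 and 0.14, and RN7SL1, RN7SL2 and TERC had -0.47, -0.39 and -0.48, none of them called. The part of the 5.8S genes in the ONT differences of RN7SK, RMRP and VTRNA1-1 was not tested. Whether the line difference itself differed between ONT and Illumina was tested as an interaction over 12 libraries. None of the 8 members passed in edgeR, 0 had an unadjusted p below 0.05 and DESeq2 called 0, where 7.16% of 29395 genes were called. RN7SK had an interaction of -2.85 ± 1.81 (SE, edgeR adjusted p = 0.446), RMRP of -1.33 ± 2.04 (edgeR adjusted p = 0.787) and RPPH1 of -1.78 ± 1.17 (edgeR adjusted p = 0.464). With RNA sample 3 of HCC827 left out, RN7SK came to 0.84 (edgeR adjusted p = 0.345), RPPH1 to 0.58 (edgeR adjusted p = 0.544) and RMRP to 2.20 (edgeR adjusted p = 0.0282), that is, for RMRP a larger line difference in ONT than in Illumina.

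PacBio held no count of any member in any of its 6 libraries. Over these libraries, with 277695 gene counts in all, 3 counts correspond to 10.8 CPM. At their pooled Illumina level of 47.3 CPM, 13.1 counts of RN7SL1 would have been read, and at 44.8 CPM 12.4 of RN7SL2. Their PacBio levels were thus at least 4.38-fold and 4.15-fold lower, if the 6 libraries are separate samples. If H1975 replicates 2 and 3, or HCC827 replicates 1 and 2, are each 1 sample, the floor is higher and these bounds are smaller. PacBio counts are also of clustered sequences, so a floor in counts is not a floor in reads. The tests that follow take the libraries as separate too. The edgeR test did not call them (adjusted p = 0.175 and 0.192), whereas with the RNA sample as a block it did (edgeR adjusted p = 9.78e-10 and 2.54e-09), as did DESeq2 (adjusted p = 5.54e-06 and 1.09e-05). In that comparison 49.3% of 19189 genes were called, 40.3% lower, and these 2 members alone passed the filter.

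The other 6 members lay under the PacBio floor in Illumina, and all 8 did in ONT, so that a difference was not detectable at this depth. RN7SL1 at its ONT level would have given 1.39 counts. The edgeR fit of PacBio over ONT called RN7SL1, RN7SL2 and RNU7-1 lower (edgeR adjusted p = 0.00798, 0.00995 and 0.0110), where 46.8% of 24440 genes were called, 33.1% lower. It called none of the 8 with total counts only (edgeR adjusted p = 0.354, 0.367 and 0.375 for the same 3), and its scaling put the median of all genes at -4.44. With the RNA sample as a block RPPH1 was called too (edgeR adjusted p = 0.0231).

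Once levels were divided by length, the order of the members differed between platforms. As CPM per kilobase, H1975 Illumina libraries held 149 ± 54.0 (SD, n = 3) of RN7SL1 and 145 ± 52.3 of RN7SL2. RNU7-1 followed at 8.19 ± 0.36, RPPH1 at 4.09 ± 0.52, RN7SK at 3.82 ± 0.65, TERC at 1.97 ± 0.37 and RMRP at 1.93 ± 0.20, with VTRNA1-1 at 0. The particle RNAs stood far above the rest. RPPH1 and RN7SK, and TERC and RMRP, lay within 1 SD of each other.

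In plain CPM RN7SL1 and RN7SL2 led in ONT as well, at 6.92 and 6.03 against 3.40 for RNU7-1 in H1975 and 3.41 and 3.13 against 2.53 in HCC827. Division by the 63 bases of RNU7-1 puts it first, and whether a long-read count scales with length was not tested.

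In H1975 ONT libraries RNU7-1 came top per length, at 54.0 ± 6.6 CPM per kilobase (SD, n = 3). RN7SL1 followed at 23.2 ± 7.3, RN7SL2 at 20.1 ± 6.5, VTRNA1-1 at 10.8 ± 2.8, RPPH1 at 6.91 ± 2.27, RN7SK at 2.30 ± 0.86, TERC at 1.91 ± 0.35 and RMRP at 0.446 ± 0.260. RN7SL1 and RN7SL2, and RN7SK and TERC, lay within 1 SD of each other. In HCC827 ONT libraries RNU7-1 again led, at 40.1 ± 6.4, and VTRNA1-1 came next at 14.8 ± 7.2, within 1 SD of RN7SL1 at 11.4 ± 3.5. RN7SL2 followed at 10.4 ± 2.8, RPPH1 at 6.89 ± 3.65, RN7SK at 3.95 ± 2.26, RMRP at 1.39 ± 0.29 and TERC at 0.941 ± 0.237.

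In HCC827 Illumina libraries RN7SK stood at 55.2 ± 86.2 CPM per kilobase (SD, n = 3), behind RN7SL1 at 156 ± 48.6 and RN7SL2 at 138 ± 47.8. In the other 2 libraries of that group the RN7SK mean was 5.41, below the 9.13 of RNU7-1. The RMRP mean went from 17.2 to 1.39 and that of RPPH1 from 16.0 to 4.15 in the same way. RNU7-1 at 8.53 ± 1.60, TERC at 1.32 ± 0.53 and VTRNA1-1 at 0 closed the order.

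**Figure D4:**
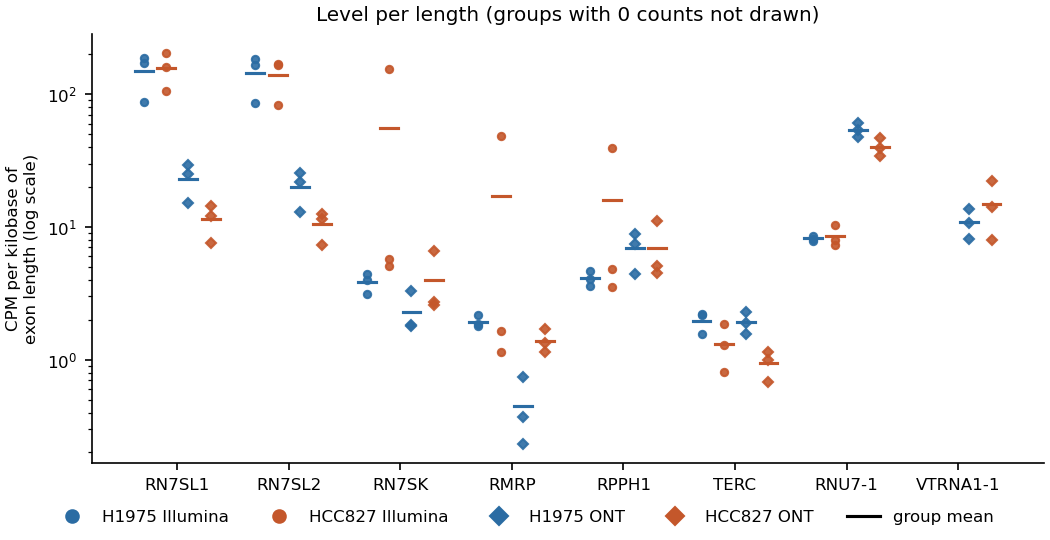
CPM per kilobase of exon length (log axis) for each member and group; points are libraries, circles Illumina and diamonds ONT, and bars are group means. RN7SL1 and RN7SL2 lead in Illumina at 138 to 156, RNU7-1 leads in ONT at 54.0 and 40.1, and the HCC827 Illumina means of RN7SK, RMRP and RPPH1 lie well above 2 of their 3 points.

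The transcription machinery of these genes was read from the mRNA of its subunits. Of the 11 RNA polymerase III subunits, Illumina called 5 higher and 3 lower in HCC827, and ONT 3 higher and 4 lower. For all genes tested, the shares called were 74.1% and 62.7%. POLR3C was higher (0.80 ± 0.12 in Illumina, 0.64 ± 0.15 in ONT) and so was POLR3E (0.80 ± 0.10 and 0.67 ± 0.18). POLR3G, whose paralog POLR3GL takes its place in the other form of the enzyme, was lower (-1.21 ± 0.10 and -1.57 ± 0.17), as was POLR3F (-0.54 ± 0.13 and -0.72 ± 0.20). The list median was 0.01 and -0.02.

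Of the 18 promoter and regulatory factors, Illumina called 10 higher and 4 lower, and ONT 9 higher and 3 lower, with medians of 0.54 and 0.40. MAF1, which represses RNA polymerase III, was higher (1.47 ± 0.13 and 1.20 ± 0.16). Within the snRNA-activating complex SNAPC2 was higher (1.51 ± 0.13 and 1.25 ± 0.18) and SNAPC1 lower (-1.63 ± 0.11 and -1.70 ± 0.13). BDP1, of TFIIIB, was lower in Illumina (-0.74 ± 0.09) and had -0.45 ± 0.18 in ONT (edgeR adjusted p = 0.0513). Over all 8 protein lists, with 81 genes, Illumina called 35 higher and 22 lower with a median of 0.05, and ONT 22 higher and 20 lower with a median of 0.04. These are 70.4% and 51.9% of the 81, below the 74.1% and 62.7% called among all genes. None of the 81 passed the interaction test in edgeR.

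**Figure D5:**
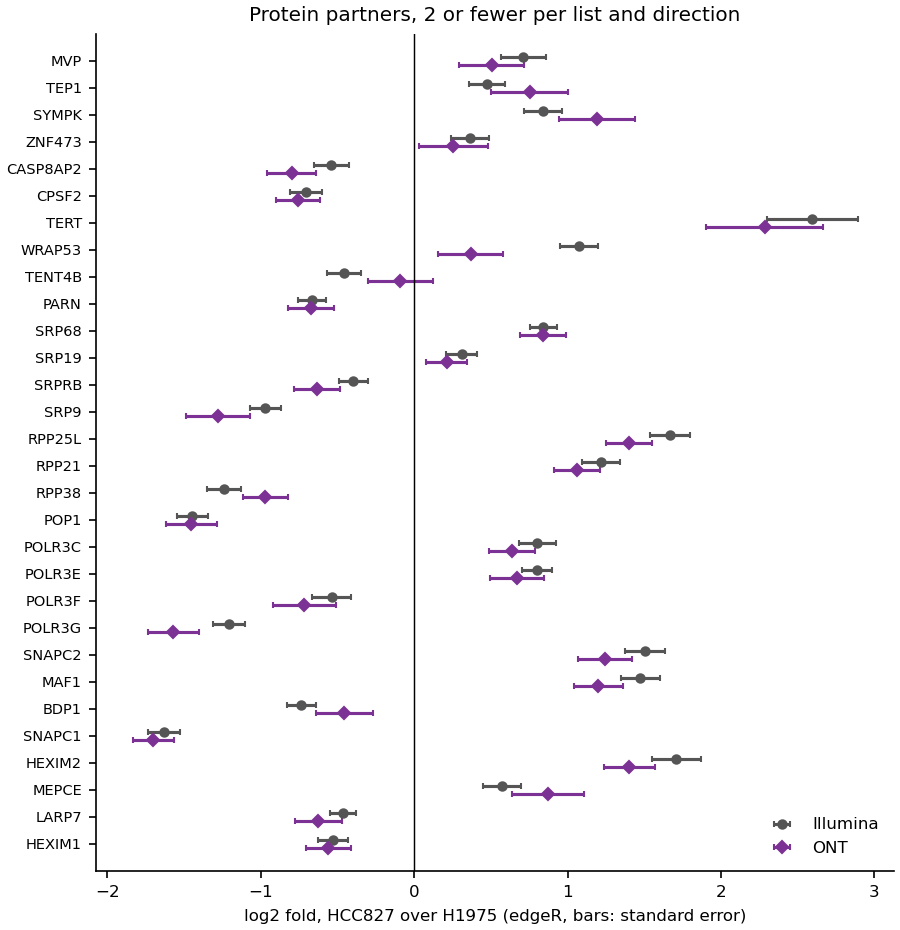
Log2 fold of HCC827 over H1975 (edgeR, bars are standard errors) of the 30 named protein partners, up to 2 called higher and 2 called lower in Illumina per list, in Illumina (circles) and ONT (diamonds). TERT lies furthest right at 2.60 and 2.29 and SNAPC1 furthest left at -1.63 and -1.70; every pair of points lies on the same side of 0.

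Related small RNAs, from a list of other short noncoding RNAs, mostly had a higher mean CPM in ONT. Of 30 listed, 29 were matched; all 29 had counts in Illumina and in ONT, and none had a PacBio count. Mean CPM was higher in ONT for 21 and lower for 8. In the fit 21 passed the filter, and 19 of them were called higher in ONT and 0 lower, where 44.2% of all genes were called higher. The filter kept 21 of the list in ONT alone but 7 in Illumina alone, so most entered through their ONT counts. That favours calls in the ONT direction, so the split cannot be weighed against the 44.2%. Of the 19, 4 had a lower mean CPM in ONT (RNU6-2, RNU6-9, SNORD3A and SCARNA2), so their direction turns with the scaling. The median of the 21 tested was 2.92 against 0.12 over all genes, with the same limit from the filter. RN7SL3, the third signal recognition particle RNA, was higher in ONT by 1.63 ± 0.21 on the TMM scale, with mean CPM of 1.85 in Illumina and 2.05 in ONT.

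VTRNA1-3, the vault paralog, had 2717, 2919 and 3052 counts in the H1975 ONT libraries and 1841, 2396 and 1326 in those of HCC827. In Illumina it had 5, 12 and 17 counts, and 11, 6 and 14. Its log2 ratio of ONT over Illumina was 7.66 ± 0.20 (SE, edgeR adjusted p = 4.30e-17), and its ONT line difference of -0.33 ± 0.18 did not pass (edgeR adjusted p = 0.127), beside 0.98 for VTRNA1-1. VTRNA2-1, a related RNA of another locus, was lower in HCC827 in ONT (-1.17 ± 0.32, edgeR adjusted p = 0.00762). SNORD3A, the U3 RNA of ribosomal RNA processing, was higher in HCC827 on both platforms (1.35 ± 0.24 and 2.63 ± 0.53). RNU6-2, a U6 gene, did not pass on either (-0.56 ± 0.29, edgeR adjusted p = 0.0939, and -0.29 ± 0.28, edgeR adjusted p = 0.385). In ONT 8 of the 21 related RNAs tested (38.1%) were called higher in HCC827 and 4 (19.0%) lower, where 31.1% and 31.6% of all genes were. In Illumina 2 of 7 (28.6%) were called higher and 0 lower, where 9293 and 9768 of 25711 genes were.

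Gene patterns like those of the members were sought across the 12 Illumina and ONT libraries among 16645 genes, as correlations of log2(CPM + 1). They are a description over libraries that share RNA samples and fall into 2 platforms, and high values were common: 1995 genes had an r above 0.95 with RN7SL1 and 2509 with RN7SL2. RN7SL1 and RN7SL2 had an r of 0.997 with each other, and RN7SL2 of 1.00 with ENSG00000282885, in whose exons it lies. RN7SK had an r of 1 with the entry 7SK and 0.911 with HFM1, while RPPH1 had 0.923 with the U1 variant gene RNVU1-29 and 0.881 with 7SK. Over the 11 libraries without Illumina HCC827 replicate 3, RN7SK and HFM1 had an r of 0.137, RPPH1 and RNVU1-29 of 0.692, and RPPH1 and 7SK of 0.137, so these rest on that library, whereas RN7SK and 7SK stayed at 1. The other members had fewer than 10 counts in at least 1 of the 12 libraries.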

How the data were processed

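Expression was measured as gene counts in 18 libraries. The deposited counts are the authors' whole-number counts per gene, not normalized. They name minimap2 2.17, featureCounts and GRCh38 (submitters' processing notes), with settings and annotation release not given in the sources used here. PacBio counts came from clustered sequences, per the file headers.

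Identifiers were matched to GENCODE release 44 (60357 of 60617 Illumina and 58207 of 58676 long-read genes), and totals leave the sequins out. Line differences (6 libraries) and platform ratios (12) were fitted on whole tables with edgeR 4.0.16 in R 4.3.3 (TMM, filterByExpr, robust quasi-likelihood F, two-sided, Benjamini-Hochberg, called below 0.05); DESeq2 1.42.0 was an alternative. The fitting script was tested on simulated data with the same dispersion for every gene. Of true log2 folds of 2, it called 98.0% to 100% between lines, 99.0% in ONT over Illumina and 92.6% in the interaction. In PacBio over Illumina and PacBio over ONT it called 44.2% and 22.2%, with mean folds of 3.24 and 3.46. A floor is 3 counts over a platform's libraries. Replicates are independent RNA samples of a line, so p-values of line differences measure the spread between these. The main platform ratio and interaction fits treated the 12 libraries as separate and left out that platforms share RNA samples. Blocking on the RNA sample was run as an alternative. The labels tie libraries of the same line and number on different platforms to 1 RNA sample. Their deviations correlated at 0.0205 to 0.505 between ONT and Illumina, against -0.303 to 0.0521 for unmatched numbers of a line. H1975 ONT replicate 2 correlated less with Illumina replicate 2 (0.0205) than with Illumina replicate 3 (0.0521).

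The members, lists and tests were chosen with earlier results of these data known. Named partners are up to 2 genes per list and direction with the largest called Illumina fold; related RNAs are the 3 highest by mean CPM per platform; like genes are the 2 highest correlations. Some sequences are not reported here.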

Additional observations from a re-analysis of the deposited data

How the results depend on the processing

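Of 508 member values recomputed under other settings, 446 held both sign and call, 32 newly passed, 8 no longer passed and 22 changed sign. The tally includes the PacBio ratios, where no member had PacBio counts, and VTRNA1-1 in ONT over Illumina, where it had no Illumina counts. Signs there were largely set in advance, so the 446 overstates how far the values held. Leaving out 1 RNA sample or library gave these ranges where a sign changed: RMRP -0.058 to 4.47 and TERC -0.80 to 0.21 (Illumina lines), RNU7-1 -0.021 to 0.33 (ONT lines), RN7SK -1.47 to 1.00 and RMRP -1.75 to 0.31 (ONT over Illumina), and in the interaction RN7SK -3.85 to 0.84, RMRP -1.91 to 2.20, RPPH1 -2.57 to 0.58, TERC -0.33 to 0.37 and RNU7-1 -0.41 to 0.016. Of these 11 sign changes, 8 came without HCC827 replicate 3. With total counts only, chosen after seeing the data for the line fits, RN7SL2 was -0.039 (Illumina lines), RPPH1 -0.0063 and RNU7-1 -0.43 (ONT lines), and RPPH1 -0.29 and TERC -0.28 (ONT over Illumina). With pseudogenes summed in by symbol, RNU7-1 was -1.56 (Illumina lines), -0.19 (ONT lines) and 1.52 (interaction). RN7SK was then 1.07 (ONT over Illumina) and 0.29 (PacBio over ONT). DESeq2 gave 1.44 for RMRP in PacBio over ONT. The causes were not tested. With no filter on low counts, RN7SL1, RN7SK and RPPH1 passed the interaction test (-0.72, -2.82 and -1.74), and RN7SK, RMRP and RPPH1 the ONT to Illumina ratio.

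Of all genes, 206 were called between lines in PacBio, 133 by DESeq2, 971 with no filter, 63 with close pairs summed, and 24 to 336 with 1 library left out. The interaction count of 2105 was 3358 with total counts only and 1101 to 2765 with 1 RNA sample left out. With effective library sizes over all 18 libraries, the summed ONT level of the members moved from 21.6 to 43.4 CPM in H1975 and from 15.0 to 47.0 in HCC827.

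Between lines a replicate number is only a number (deviations of same-numbered libraries correlated at -0.225 to 0.137). With it as a replicate block, PacBio calls were 50, and RN7SL1 passed in Illumina (0.48, edgeR adjusted p = 0.000214). Blocking on the RNA sample between platforms changed the PacBio calls given above and no other member call. PacBio depth leaves every member but RN7SL1 and RN7SL2 below what it can detect.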
